A study of Arabidopsis thaliana with 29 samples.

Results

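The genes described here encode the enzymes that build anthocyanins in Arabidopsis thaliana, from the first committed step of flavonoid synthesis to the sugar and acyl groups added to the finished pigment, together with a carrier protein. They were chosen by locus from a list of 10 genes: TT4, TT5, F3H, TT7, DFR, LDOX, UF3GT, UGT75C1, TT19 and 5MAT. Of the 33681 loci of the table, 9 are members with values. All 9 passed the filter on low values and stand among the 18757 loci tested, and 5MAT (AT3G29590), a malonyltransferase, is not analysed here. RNA sequencing was done on whole plants of the mutant pp7l (15 libraries) and of the wild type accession Col-0, written Col0 (14 libraries). Plants were grown on soil in long days and were 3 weeks old when watering stopped, and they were collected after 0, 6, 9, 12 or 15 days without water (0 D to 15 D). Each genotype and day has 3 libraries, except Col0 at 6 D with 2. The gene PP7L encodes a phosphatase-like protein of the nucleus that plants need to build chloroplasts. The sample labels and the series text name different alleles of pp7l, and no watered plants of the later days are named, so lack of water and greater age cannot be told apart. The columns of the table mark the replicates as brep, and the labels do not say whether these were separate plants, so p-values measure the spread between these libraries.

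Anthocyanins are red to blue vacuolar pigments that leaves and stems accumulate under strong light, cold, sugar, nutrient shortage and drought. Chalcone synthase (TT4), chalcone isomerase (TT5), flavanone 3-hydroxylase (F3H) and flavonoid 3′-hydroxylase (TT7) make precursors that flavonols share, and are called the early steps here. Dihydroflavonol reductase (DFR) and leucoanthocyanidin dioxygenase (LDOX) lead on to the anthocyanidin, and the glycosyltransferases UF3GT and UGT75C1 add sugars to it. TT19 is a glutathione S-transferase needed for the pigment to reach the vacuole. DFR, LDOX, UF3GT, UGT75C1 and TT19 are called the late steps, and a complex of MYB proteins such as PAP1 and PAP2 with the bHLH protein TT8 and the WD40 protein TTG1 is known to switch them on.

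Because the members moved together, the 250 bases before each gene's start were read from the RefSeq genome of build TAIR10.1, and 4 are shown: 3 that hold the G-box CACGTG and that of LDOX, which holds none of the motifs marked. Capitals mark matches, on either strand, of CACGTG, of the shorter ACGTG it contains, and of forms bound by plant MYB proteins, here ACCTACC with the related ACCAACC, the form ACCTAAC and also ACCAAAC.
TT4, chr5:4488226-4488475, plus strand: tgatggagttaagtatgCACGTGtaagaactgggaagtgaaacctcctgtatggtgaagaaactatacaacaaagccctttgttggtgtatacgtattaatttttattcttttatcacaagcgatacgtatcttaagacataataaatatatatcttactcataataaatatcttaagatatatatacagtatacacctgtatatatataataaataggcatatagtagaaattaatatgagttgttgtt
DFR, chr5:17166033-17166282, minus strand: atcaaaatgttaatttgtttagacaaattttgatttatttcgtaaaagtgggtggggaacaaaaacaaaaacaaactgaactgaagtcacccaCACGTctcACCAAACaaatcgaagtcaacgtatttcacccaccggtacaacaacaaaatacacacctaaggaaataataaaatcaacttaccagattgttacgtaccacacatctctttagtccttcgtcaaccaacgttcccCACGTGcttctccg
UF3GT, chr5:21938397-21938646, minus strand: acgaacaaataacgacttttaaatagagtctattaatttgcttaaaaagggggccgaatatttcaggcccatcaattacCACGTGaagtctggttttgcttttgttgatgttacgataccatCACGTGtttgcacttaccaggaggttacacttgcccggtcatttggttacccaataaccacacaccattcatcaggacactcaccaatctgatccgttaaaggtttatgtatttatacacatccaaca
LDOX, chr4:12006210-12006459, minus strand: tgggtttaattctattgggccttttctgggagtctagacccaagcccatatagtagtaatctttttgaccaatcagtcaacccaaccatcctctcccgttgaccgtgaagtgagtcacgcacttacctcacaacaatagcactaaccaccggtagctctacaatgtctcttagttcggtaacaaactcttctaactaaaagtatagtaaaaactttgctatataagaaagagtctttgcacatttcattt
CACGTG was present in 4 of the 9 members (TT4, F3H, DFR and UF3GT) and in 6.49% of the 27443 windows of the same length before annotated genes. ACGTG was present in the same 4 members and in 22.9% of all windows. An ACC motif was present in 2 of 9 members, DFR and UGT75C1, and in 13.7% of all windows. The looser E-box CANNTG, which takes in CACGTG, was present in 7 of 9 members and in 55.3% of all windows. A match of letters is a description and not a binding site.

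In that build TT4 (AT5G13930) lies at chr5:4488476-4490264 with 2 exons, TT5 (AT3G55120) at chr3:20430059-20431597 with 4, and TT7 (AT5G07990) at chr5:2560328-2563137 with 4. F3H (AT3G51240) lies at chr3:19025192-19026872 with 3 or 4 exons. DFR (AT5G42800) lies at chr5:17164093-17166032 with 6 exons, LDOX (AT4G22880) at chr4:12004726-12006209 with 2 or 3, and TT19 (AT5G17220) at chr5:5658416-5659661 with 3. UF3GT (AT5G54060, chr5:21936746-21938396) and UGT75C1 (AT4G14090, chr4:8122188-8123835) have 1 exon each. Genes annotated on the other strand overlap TT4 (AT5G13940), F3H (AT3G51238), UGT75C1 (AT4G14100 and AT4G06175) and TT19 (AT5G17230). Whether strand was used in quantification is not given in the sources used here, so reads from the stretch shared by such a pair may not be told apart.

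Values are in TPM (transcripts scaled to a fixed total), a level per length of transcript with a total of 1000000 in each library. No read counts came with the TPM, so the depth is unknown, and between 17976 and 22769 loci were above 0 in a library. Col0 6 D replicate 1 stood apart, with a rank correlation of 0.876 with its group mate across loci and summed leaf markers of 961 TPM, against 7380 TPM in replicate 3. Ribosomal RNA took up 25% of all TPM of Col0 12 D replicate 3, and 27.5% and 61.2% in Col0 15 D replicates 1 and 3. The locus AT1G15405 held 46% in Col0 15 D replicate 2. PP7L itself (AT5G10900) was at 0.375 to 2.62 TPM in pp7l (median 0.924) and at 0.044 to 1.08 TPM in Col0 (median 0.257), so its level does not check the genotype labels. In whole plants fewer cells of a type and less RNA per cell cannot be told apart.

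Summed, the enzyme transcripts had 1 broad maximum in Col0, at 9 D and 12 D, and 2 maxima in pp7l, at 6 D and 12 D, with a lower level at 9 D between them. Single members differed in Col0, where by 12 D LDOX, UF3GT and UGT75C1 had means of 44.4%, 39.8% and 36.4% of those at 9 D. The summed level of the 9 members in pp7l averaged 32.3 ± 0.767, 580 ± 4.72, 247 ± 49.4, 747 ± 57.1 and 508 ± 75.7 TPM from 0 D to 15 D (SD, n = 3 each). In Col0 the sum averaged 34.9 ± 11.1 TPM at 0 D (SD, n = 3) and was 39.8 and 182 TPM in the libraries of 6 D. Over the next days it averaged 989 ± 189, 730 ± 100 and 63 ± 40.7 TPM in Col0 (9, 12 and 15 D, SD, n = 3 each). The genotypes thus stood at a similar sum at 0 D and 12 D and apart at 6 D, 9 D and 15 D. TT4 alone gave 37.1% to 48.2% of the sum on average in pp7l groups and 32.8% to 60.8% in Col0 groups.

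**Figure D1:**
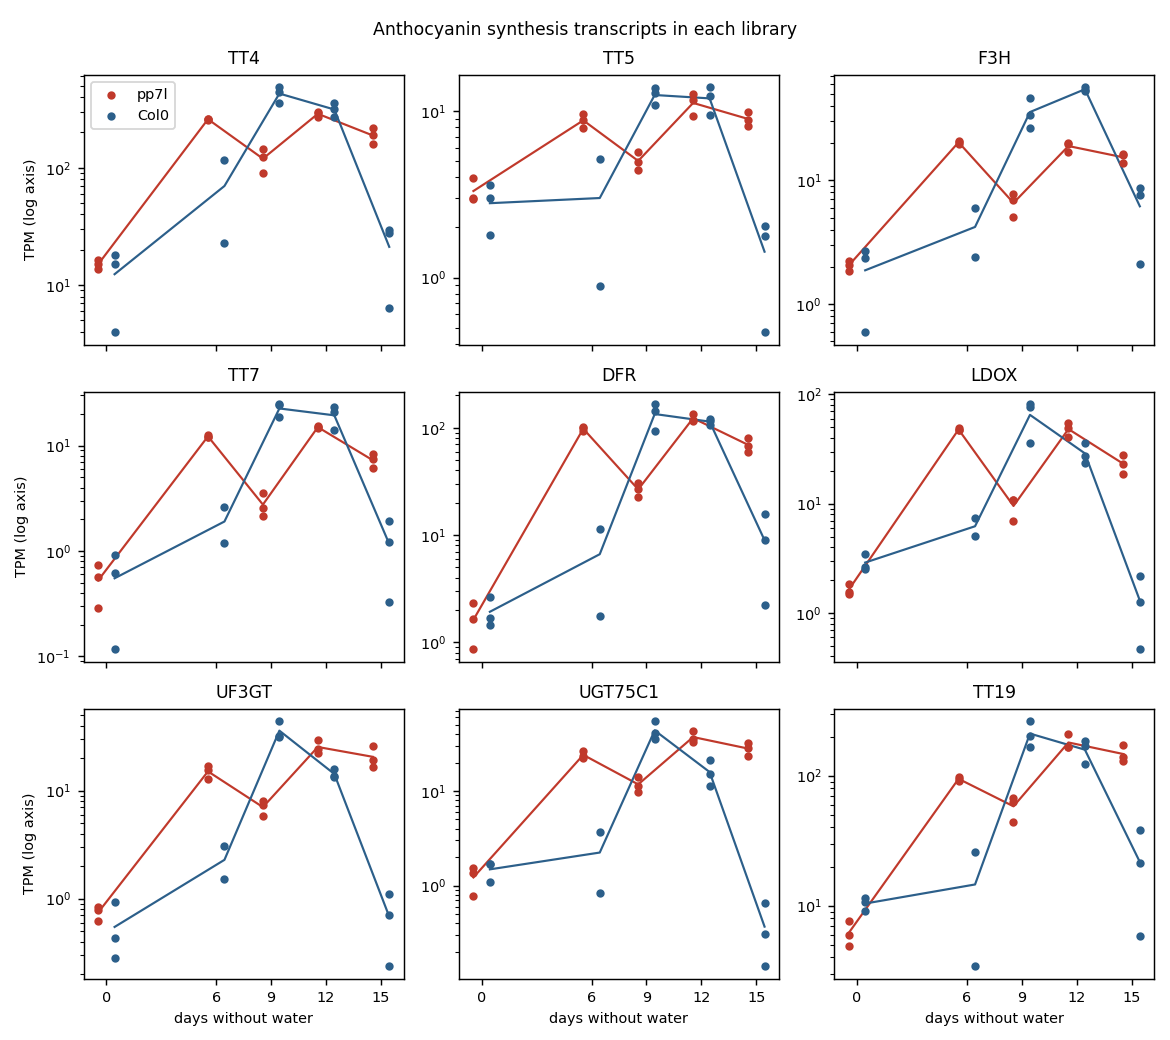
TPM (log axis) of the 9 members in each library against days without water, with pp7l libraries left of Col0 libraries at each day; lines join group means. In pp7l every member is lower at 9 D than at 6 D and 12 D in all libraries, while in Col0 the means of 9 D and 12 D are the highest of the course for each member. The share of all loci with no overlap between these days was not worked out.

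TT4, which makes the chalcone from which all flavonoids derive, had the highest mean of the 9 members in pp7l at every day and in Col0 from 0 D to 12 D. In pp7l its TPM were 15.2, 13.6 and 16.3 at 0 D, 257, 259 and 261 at 6 D, 144, 124 and 90.3 at 9 D, 301, 268 and 295 at 12 D, and 189, 216 and 160 at 15 D. In Col0 they were 15.2, 18 and 3.97 at 0 D, 22.8 and 117 at 6 D, 443, 353 and 489 at 9 D, 357, 315 and 268 at 12 D, and 27.6, 29.6 and 6.35 at 15 D. All pp7l libraries of 6 D lie above both Col0 libraries of that day, and all of 9 D lie below those of Col0.

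F3H, which hydroxylates flavanones to dihydroflavonols, was the member whose maximum in Col0 came at 12 D. Its TPM in pp7l were 1.85, 2.08 and 2.22 at 0 D, 19.7, 20.4 and 20.8 at 6 D, 7.75, 5.06 and 6.89 at 9 D, 17, 19.6 and 20.2 at 12 D, and 15.9, 16.3 and 13.8 at 15 D. In Col0 they were 2.36, 2.67 and 0.592 at 0 D, 2.4 and 6 at 6 D, 33.9, 26.6 and 46.4 at 9 D, 53.5, 57 and 52.9 at 12 D, and 8.72, 7.67 and 2.11 at 15 D. No pp7l library reached the lowest Col0 value of 9 D or 12 D.

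DFR, which makes leucoanthocyanidins, had the largest log2(TPM + 1) change from 0 D among the 9 members, at 12 D in pp7l (5.6) and at 9 D in Col0 (5.51). Its TPM in pp7l were 0.864, 1.66 and 2.35 at 0 D, 100, 101 and 92.5 at 6 D, 30.8, 26.6 and 22.5 at 9 D, 133, 119 and 116 at 12 D, and 68.1, 81 and 58.8 at 15 D. In Col0 they were 1.45, 2.64 and 1.7 at 0 D, 1.77 and 11.5 at 6 D, 167, 93.6 and 142 at 9 D, 116, 120 and 106 at 12 D, and 15.6, 9.05 and 2.25 at 15 D. At 12 D the libraries of both genotypes overlap.

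LDOX, which turns leucoanthocyanidins into anthocyanidins, had the largest log2(TPM + 1) change of the 9 members from 6 D to 9 D in pp7l (-2.23). Its TPM in pp7l were 1.83, 1.57 and 1.49 at 0 D, 47.4, 46.8 and 48.9 at 6 D, 10.8, 10.8 and 6.98 at 9 D, 49, 40.9 and 54.5 at 12 D, and 23, 27.6 and 18.8 at 15 D. In Col0 they were 2.55, 2.64 and 3.49 at 0 D, 5.04 and 7.39 at 6 D, 81.9, 35.8 and 77 at 9 D, 35.8, 27.1 and 23.6 at 12 D, and 2.17, 1.26 and 0.466 at 15 D. Col0 9 D replicate 2 is lower than the others of its group and lies beside the highest library of 12 D, so those days overlap.

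UGT75C1, the anthocyanin 5-O-glucosyltransferase, ended lowest of all members in Col0. Its TPM in pp7l were 0.784, 1.35 and 1.52 at 0 D, 22.1, 23.6 and 26.6 at 6 D, 14.1, 11.4 and 9.74 at 9 D, 43.3, 32.9 and 35.4 at 12 D, and 28.6, 32.1 and 23.6 at 15 D. In Col0 they were 1.69, 1.68 and 1.08 at 0 D, 0.826 and 3.64 at 6 D, 55.2, 35.3 and 40.6 at 9 D, 21.2, 15.2 and 11.2 at 12 D, and 0.306, 0.657 and 0.14 at 15 D. At 12 D every pp7l library is above every Col0 library, and at 9 D every one is below.

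The other 4 members also had 2 maxima in pp7l and their highest mean of Col0 at 9 D. By 12 D in Col0 they differed, with UF3GT at 39.8% and TT5 at 95.2% of that mean. TT19 averaged 6.17, 94.5, 58.1, 180 and 147 TPM in pp7l and 10.4, 14.6, 211, 158 and 21.7 TPM in Col0 from 0 D to 15 D. UF3GT, which adds xylose to the sugar of the anthocyanin, averaged 0.743, 15, 7.04, 25.4 and 20.6 TPM in pp7l and 0.546, 2.28, 35.9, 14.3 and 0.68 TPM in Col0. TT7, which adds the hydroxyl group that distinguishes cyanidin from pelargonidin, averaged 0.526, 12.2, 2.76, 15 and 7.27 TPM in pp7l and 0.551, 1.91, 22.5, 19.4 and 1.17 TPM in Col0. TT5 had the smallest range, with means of 3.31, 8.8, 5.02, 11.2 and 8.97 TPM in pp7l and of 2.8, 3.01, 12.5, 11.9 and 1.43 TPM in Col0. Within groups of 3, the SD was at most 24.6 TPM for TT19 in pp7l and 49 TPM in Col0.

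Tests were made with limma on log2(TPM + 1), a scale that understates the change of low genes, with p-values adjusted over all tested loci in each comparison and called at 0.05. Because TPM are shares of a total, the change of the median tested locus is given too, and a change minus that median is called relative. In pp7l at 6 D against 0 D, 9 of 9 members were higher and none lower, where 17.5% of all loci were called higher and 3.9% lower (14.8% and 17.1% after median-of-ratios scaling). The members' log2 changes ran from 1.19 for TT5 to 5.27 ± 0.45 (SE) for DFR, whose limma adjusted p was 4.23e-09, with a median of 3.51 beside 0.25 for all loci. LDOX rose by 4.21 ± 0.3 (SE), 18.5-fold in TPM + 1, from a mean of 1.63 to 47.7 TPM. TT4 rose by 4.02 ± 0.51, 16.3-fold in TPM + 1. No member's libraries overlapped between the days. The share of all loci without such overlap was not worked out, for these days or for any comparison above or below.

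In Col0 at 6 D against 0 D, 3 of 9 members were higher (TT4, TT7 and UF3GT), where 16% of loci were called higher and 9.34% lower (25.8% and 27.9% after scaling). Their log2 changes were 2.2 ± 0.57, 0.9 ± 0.3 and 1.07 ± 0.27 (SE), with limma adjusted p of 0.00564, 0.0273 and 0.00541. Leaving out Col0 6 D replicate 1 gave 7 members, where 7799 of 18757 loci were higher, and leaving out Col0 0 D replicate 3 gave 1. Without Col0 6 D replicate 3 the count was 0 and 2 members were lower, where 1889 loci were higher and 6228 lower. At 9 D against 0 D, 9 of 9 members were higher in Col0, by 1.86 for TT5 to 5.51 ± 0.45 (SE, limma adjusted p = 3.32e-10) for DFR, a median of 4.16. That day 64.8% of loci were called higher and 2.88% lower in Col0 (26.3% and 24.9% after scaling), with a median change of 0.86, so the members' relative median was 3.29. All 9 were also higher at 9 D than at 6 D, by 1.98 for TT5 to 4.48 for DFR, against 61% of loci called higher and 1.17% lower (17.2% and 13.8% after scaling), although 0 of 9 passed in a fit of those days alone or with array weights, where 0 of all 18757 loci passed too.

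**Figure D2:**
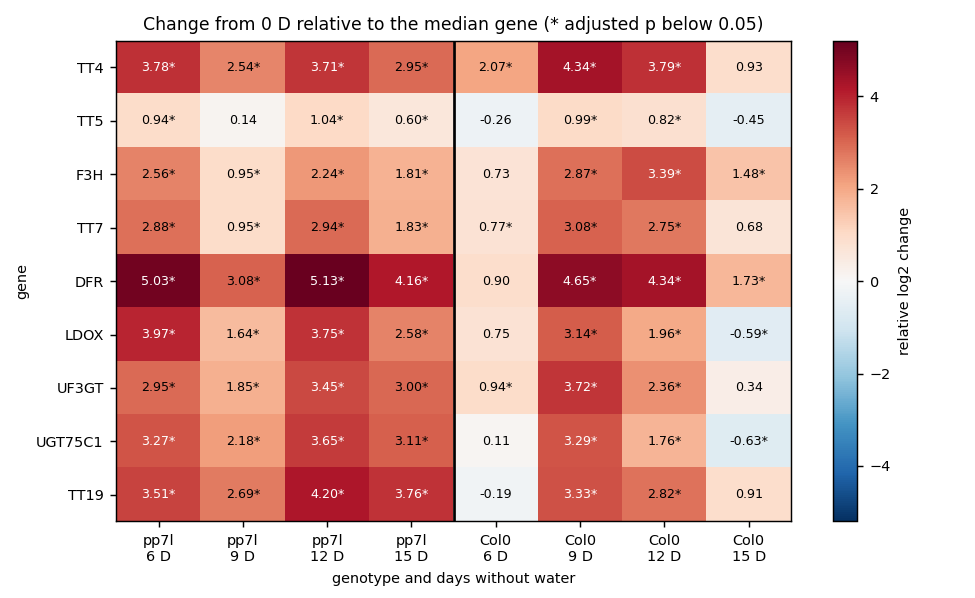
Log2 change of each member from 0 D minus the median change of all tested loci, for pp7l and then Col0 at 6, 9, 12 and 15 days; asterisks mark limma adjusted p below 0.05. DFR changes most, reaching 5.13 in pp7l at 12 D and 4.65 in Col0 at 9 D, and the Col0 columns of 6 D and 15 D are pale.

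From 6 D to 9 D the members had opposite signs in the genotypes. In pp7l all 9 were lower at 9 D than at 6 D in every library, and 3 were called. In the other lists, genes without overlap between these days ran from 8 of 8 general phenylpropanoid genes to 0 of 3 proanthocyanidin genes. The share of all loci was not worked out. LDOX changed by -2.23 ± 0.3 (SE, limma adjusted p = 7.04e-05), TT7 by -1.83 ± 0.27 (0.000243) and F3H by -1.51 ± 0.35 (0.0342). DFR, at -1.85 ± 0.45, and UF3GT, at -1 ± 0.24, missed the threshold with limma adjusted p of 0.0509 and 0.0534. Few loci changed in this interval, 0.251% higher and 0.357% lower (0.72% and 2.73% after scaling), and the members' median change of -1.14 compares with 0.11 for all loci. The count of members was 2 without any 1 library of either day, F3H being the call lost. It was 8 after median-of-ratios scaling, where every member but TT19 was called, 1 with a pseudocount of 0.1, and 9 in a fit of those days alone, where 870 of all loci were lower. With the replicate number as a block the adjusted p of F3H was 0.0535.

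At 12 D the members were higher again in pp7l. Against 9 D, 6 of 9 were called higher (F3H, TT7, DFR, LDOX, UF3GT and UGT75C1), where 1.39% of loci were called higher and 0.224% lower (2.07% and 1.08% after scaling). LDOX changed by 2.23 ± 0.3 (SE, limma adjusted p = 2.67e-05), DFR by 2.17 ± 0.45 (0.00568) and TT7 by 2.11 ± 0.27 (1.18e-05). TT4, at 1.29 ± 0.51, TT5, at 1.02 ± 0.31, and TT19, at 1.63 ± 0.49, were not called, although no library overlapped, and F3H was not called once any 1 library of the days was left out. From 12 D to 15 D limma called 0 of the 9 members in pp7l, and 2 were lower at an unadjusted p under 0.05, TT7 at -0.96 ± 0.27 and LDOX at -1.03 ± 0.3, against 1.1% of loci called higher and 0.176% lower (1.01% and 0.645% after scaling). Against 0 D the members stayed higher in pp7l: 8 of 9 at 9 D (all but TT5, at 0.48 ± 0.31), 9 at 12 D and 9 at 15 D. Loci called higher and lower were 27.7% and 5.06% at 9 D (16.6% and 20.4% after scaling), 37.8% and 6.31% at 12 D (19.4% and 22.2%), and 49.3% and 5.7% at 15 D (21.6% and 22.9%).

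In Col0, 3 late members were already lower at 12 D than at 9 D. LDOX changed by -1.07 ± 0.3, UF3GT by -1.26 ± 0.24 and UGT75C1 by -1.43 ± 0.29 (SE, limma adjusted p = 0.00468, 0.000137 and 0.000229). DFR, TT19 and the 4 early members were not called, and F3H stood at 0.63 ± 0.35 with no overlap between the days. Of all loci 23.4% were called higher and 21.6% lower in that interval (24.6% and 27.6% after scaling). At 12 D against 0 D all 9 members were higher in Col0, by 1.78 to 5.31, where 61.9% of loci were called higher and 11.9% lower (35.1% and 34.6% after scaling). From 12 D to 15 D all 9 fell, with changes of -2.47 for TT5 to -4.07 ± 0.51 for TT4 (SE, limma adjusted p = 1.45e-07). Here 81.5% of loci were called lower and 1.02% higher (17.1% lower and 21.7% higher after scaling) and the median locus changed by -1.31, so the members' relative changes ran to -2.76 for TT4.

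In Col0 at 15 D the calls against 0 D went both ways, among the members as among all loci. F3H, at 1.25 ± 0.35, and DFR, at 1.5 ± 0.45, were higher, and LDOX, at -0.82 ± 0.3, and UGT75C1, at -0.87 ± 0.29, were lower (SE, limma adjusted p = 0.00365, 0.00644, 0.0238 and 0.0139). The libraries of F3H and DFR overlap between the days and those of LDOX and UGT75C1 do not. The other 5 members were not called. Of all loci 16.7% were called higher and 34.7% lower (37.8% and 33.9% after scaling). After that scaling 6 members were higher, TT4 at 1.44, TT7 at 1.01, UF3GT at 0.48 and TT19 at 1.4 besides F3H and DFR, UGT75C1 alone was lower at -0.87, and LDOX, at -0.52, was not called. Without Col0 15 D replicate 3, in which ribosomal RNA held 61.2% of TPM, 5 members were higher and 1 lower; without replicate 1, 1 was higher; without Col0 0 D replicate 1, 1 was lower. Without the 3 libraries rich in ribosomal RNA, which leaves 1 library of Col0 at 15 D, 0 members were lower.

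Between the genotypes limma called 0 of 9 members at 0 D, and 0 had an unadjusted p under 0.05, where 18.8% of loci were called higher in pp7l and 1.43% lower (17.4% and 17.7% after scaling, when 3 members were called lower). At 6 D all 9 were higher in pp7l, by 1.52 ± 0.34 for TT5 to 4.07 ± 0.5 for DFR (SE, limma adjusted p = 0.00316 and 3.4e-06). Loci called higher and lower that day were 25.9% and 2.93% (18.7% and 17.6% after scaling). In a fit of the 6 D libraries alone, and with array weights, 0 of 9 members and 0 of all 18757 loci passed. Without Col0 6 D replicate 1, TT4 stood at 1.13 and TT5 at 0.68 and neither was called. At 9 D all 9 were lower in pp7l, with differences of -1.17 ± 0.31 for TT5 to -2.65 ± 0.27 for TT7 (SE, limma adjusted p = 0.00884 and 1.89e-08), a median of -2.19 beside -0.19 for all loci. Of all loci 11.6% were called lower and 3.05% higher (12.9% and 9.02% after scaling), and TT4 and TT19 stood at -1.66 each and were not called without pp7l 9 D replicate 3; nor was TT19 without Col0 9 D replicate 1.

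At 12 D called members differed in both directions, as did called loci at large. UF3GT, at 0.78 ± 0.24, and UGT75C1, at 1.21 ± 0.29, were higher in pp7l, and F3H, at -1.48 ± 0.35, was lower (SE, limma adjusted p = 0.0114, 0.00133 and 0.0011). LDOX stood at 0.73 ± 0.3 with a limma adjusted p of 0.0515, and the other 5 members were at most 0.32 from 0 in either direction. Loci called higher and lower in pp7l that day were 17.2% and 25.4% (24.4% and 24.4% after scaling), and UF3GT was not called without pp7l 12 D replicate 1. At 15 D all 9 were higher in pp7l, by 1.35 ± 0.35 for F3H to 4.42 ± 0.29 for UGT75C1 (SE, limma adjusted p = 0.000909 and 2.17e-12), where 77.5% of loci were called higher and 4.46% lower (30.9% and 32.7% after scaling). The median locus was higher by 1.27, which leaves relative differences of 0.09 for F3H and 3.15 for UGT75C1, and F3H turned to -0.6 (limma adjusted p = 0.0314) after median-of-ratios scaling.

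**Figure D3:**
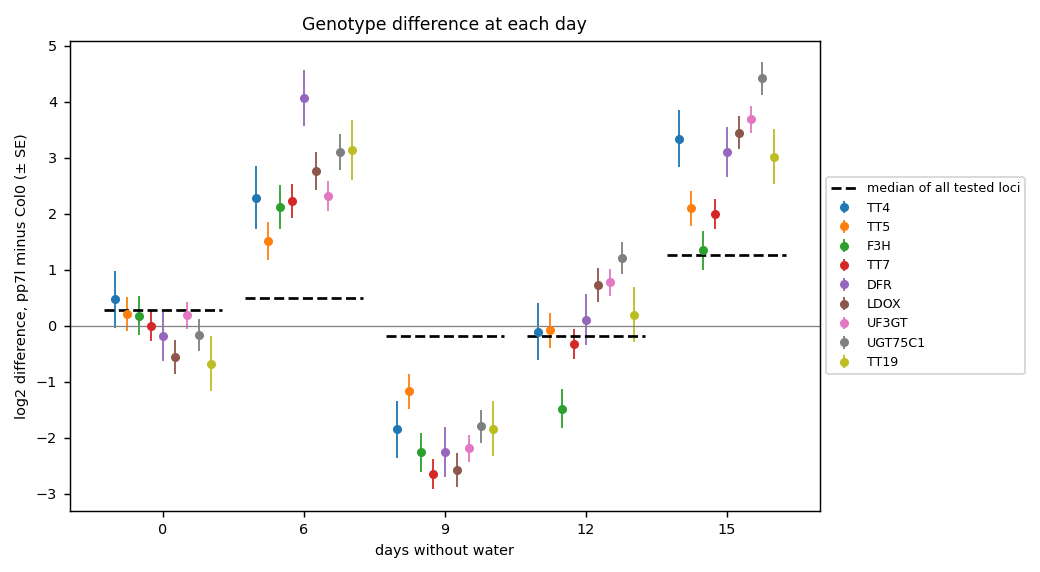
Log2 difference, pp7l minus Col0, of each member at each day with its SE, and the median of all tested loci as a dashed line. The 9 members lie above 0 at 6 D and 15 D (F3H at 15 D turns to -0.6 after median-of-ratios scaling) and below 0 at 9 D, and spread from F3H at -1.48 to UGT75C1 at 1.21 at 12 D.

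The difference in course was tested directly as the change of pp7l from 0 D minus that of Col0. To 6 D, 7 of 9 members changed more in pp7l, led by DFR at 4.25 ± 0.67 (SE, limma adjusted p = 0.000561) and TT19 at 3.82 ± 0.73 (0.00362), where 1.92% of loci were called in that direction and 1.7% in the other (16.1% and 14.5% after scaling). TT4, at 1.82 ± 0.76, and TT5, at 1.32 ± 0.46, were not called, and with array weights 0 of the 9 members and 0 of all 18757 loci were called. To 9 D, 8 of 9 changed less in pp7l, TT7 at -2.65 ± 0.38 (1.87e-05) and UF3GT at -2.39 ± 0.35 (2.43e-05) with the smallest adjusted p, where 15% of loci were called lower and 0.512% higher (9.43% and 5.19% after scaling). TT19 was at -1.16 ± 0.69 and was not called. That count was 5 without Col0 0 D replicate 3, Col0 9 D replicate 1 or 3, pp7l 0 D replicate 3, or pp7l 9 D replicate 2 or 3.

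To 12 D, LDOX, at 1.29 ± 0.43, and UGT75C1, at 1.38 ± 0.41, changed more in pp7l and F3H, at -1.66 ± 0.49, changed less (SE, limma adjusted p = 0.0173, 0.00891 and 0.00873), where 9.02% of loci were called higher and 32.6% lower (22.5% and 23.6% after scaling). To 15 D all 9 changed more in pp7l, from F3H at 1.17 ± 0.49 (0.0446) to UGT75C1 at 4.58 ± 0.41 (4.98e-09), where 51% of loci were called higher and 3.39% lower (23.3% and 27.7% after scaling). F3H stood at -0.42 after scaling and was not called then, nor with the replicate block (0.0546). The last day of pp7l was also set beside 9 D of Col0: F3H, TT7, LDOX and UF3GT were lower in pp7l, with differences of -0.78 to -1.5, and 5 members were not called, where 8.57% of loci were called higher and 8.33% lower (10.7% and 13.6% after scaling). That count was 2 without Col0 9 D replicate 1, or without pp7l 15 D replicate 1 or 3.

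The TPM of LDOX and of UGT75C1 were also set against that of F3H within each library, a pair of ratios chosen after the values were seen and given without a test. LDOX over F3H in pp7l averaged 0.805 ± 0.165, 2.36 ± 0.0543, 1.52 ± 0.574, 2.56 ± 0.416 and 1.5 ± 0.17 from 0 D to 15 D (SD, n = 3 each). In Col0 this ratio averaged 2.66 ± 2.81 at 0 D, was 1.23 and 2.1 in the libraries of 6 D, and then averaged 1.81 ± 0.549, 0.53 ± 0.121 and 0.211 ± 0.0432 (9, 12 and 15 D, SD, n = 3 each). UGT75C1 over F3H was 1.83 ± 0.416, 1.99 ± 0.484 and 1.82 ± 0.13 in pp7l at 9, 12 and 15 D, and 1.28 ± 0.379, 0.291 ± 0.0948 and 0.0624 ± 0.0255 in Col0. The genotypes do not overlap in either ratio at 12 D or 15 D, and a ratio of TPM is not touched by the scaling of the library. The ratios do not stand for the late and early steps as a whole. At 15 D UF3GT gave 4.02% of the summed member TPM in pp7l and 1.13% in Col0, but DFR gave 13.6% in pp7l and 13.6% in Col0, TT19 gave 28.9% in pp7l and 33.3% in Col0, and TT4 gave 37.1% in pp7l and 34.6% in Col0.

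**Figure D4:**
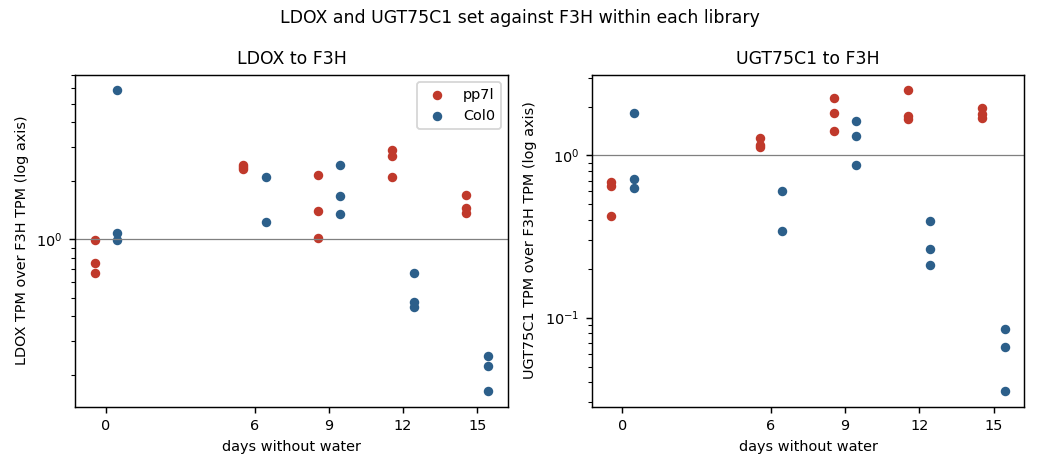
TPM of LDOX (left panel) and of UGT75C1 (right panel) divided by TPM of F3H in each library, on log axes, with pp7l left of Col0 at each day. At 15 D the pp7l libraries lie at 1.36 to 1.69 for LDOX and 1.71 to 1.96 for UGT75C1, above the Col0 libraries at 0.164 to 0.249 and 0.0351 to 0.0857.

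Markers of other organs moved with some of these results. The 7 floral organ markers were all above 0 in every Col0 library of 9 D and 12 D. In Col0 they summed to 1.02 to 1.43 TPM at 0 D, 6.22 to 19.6 at 6 D, 22.7 to 28.9 at 12 D and 1.39 to 6.54 at 15 D. Their sums in pp7l at 15 D were 2.88, 4.05 and 13.7 TPM in replicates 1, 2 and 3. At 9 D they summed to 1.79 to 4.02 TPM in pp7l, against 35.6 to 42.3 TPM in Col0, and at 6 D to 0.257 to 0.494 TPM in pp7l, where the members rose. Ovule and seed coat markers (BAN, STK and TT16) summed to 0.0377 to 0.0518 TPM in pp7l, against 5.79 to 11 TPM in Col0 at 12 D, and were all listed at 0 in pp7l at 6 D. Leaf markers (RBCS1A, CAB1 and CAB3) summed to 3800 to 3920 TPM in pp7l, against 28.8 to 119 TPM in Col0 at 15 D, having been at 14700 to 15200 TPM in pp7l and 12500 to 17400 TPM in Col0 at 0 D. The 4 root markers summed to 26.5 to 31.6 TPM in pp7l at 0 D, 68.8 to 70.4 at 6 D and 34.5 to 36.9 at 9 D. Their sum was 23.3 to 44.5 TPM in pp7l at 12 D, 24 to 29.9 at 15 D, and 0 to 23.4 TPM in Col0 over all days. Only 2 of the 4 were tested, with changes of -0.05 and 1.33 in pp7l at 6 D against 0 D. EXP7, a root marker, was at 0 in pp7l at 12 D. The part of these organs in the results was not tested.

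In the general phenylpropanoid list (8 genes, from PAL to 4CL), 4 rose in pp7l from 0 D to 6 D, the largest changes being PAL1 at 1.68 ± 0.35, 4CL2 at 1.21 ± 0.24 and PAL2 at 0.94 ± 0.29 (SE, by limma), where 17.5% of all loci were called higher. At 12 D and 15 D 2 and 1 of the 8 were higher in pp7l than at 0 D, where 37.8% and 49.3% of loci were. In Col0 from 0 D to 9 D all 8 rose, led by PAL1, which makes cinnamic acid, at 3.53 ± 0.35, 4CL1 at 2.94 ± 0.34 and PAL4 at 2.73 ± 0.24, where 64.8% of all loci were called higher. From 6 D to 9 D in pp7l PAL1 alone of the 8 was called, at -1.46 ± 0.35 (limma adjusted p = 0.0457), where 0.357% of all loci were called lower, and at 9 D 7 of 8 were lower in pp7l than in Col0, against 11.6% of all loci, PAL1 standing at 7.2 TPM in pp7l and 37.9 TPM in Col0.

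Among 6 tested genes of the other flavonoid and flavonol list, CHIL, a chalcone isomerase-like helper of chalcone synthase, had the same 2 maxima as the members in pp7l. It averaged 1.61, 11.2, 1.68, 6.94 and 4.18 TPM from 0 D to 15 D, and its change from 6 D to 9 D was -2.19 ± 0.23 (SE, limma adjusted p = 2.67e-06). UGT78D2, the flavonoid 3-O-glucosyltransferase, also fell from 6 D to 9 D in pp7l, with a change of -1.66 ± 0.31 (0.00387), and 2 of the 6 were called then. FLS1, flavonol synthase, was at 2.37 TPM in pp7l at 6 D and 2.35 TPM at 0 D, and at 12.6 TPM in Col0 at 9 D and 2.32 TPM at 0 D. It was higher than at 0 D in Col0 at 6 D (1.14 ± 0.27, limma adjusted p = 0.00303) and 9 D (2.07 ± 0.24, 1.12e-07) and in pp7l at 15 D (0.62 ± 0.24, 0.0323), and was not called in pp7l at 6 D (0.01 ± 0.24). Of the 6 tested genes of the list, 3 were higher in pp7l at 6 D than at 0 D, where 17.5% of all loci were. At 12 D this count was 4, beside 37.8% of loci, and by 15 D it had reached 5, beside 49.3%, while 9 D gave 0, beside 27.7%. In Col0 all 6 were higher at 9 D, where 64.8% of loci were, and 4 at 12 D, where 61.9% were.

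All 4 other decoration enzymes rose in pp7l by 6 D (3AT1 at 2.65 ± 0.25, 3AT2 at 1.87 ± 0.2 and SAT at 1.44 ± 0.27) and in Col0 by 9 D (3AT1 at 3.47 ± 0.25), where 17.5% of all loci were called higher in pp7l and 64.8% in Col0. SAT, a sinapoyltransferase of anthocyanins, was at 3.27, 10.5, 2.9, 7.74 and 4.32 TPM in pp7l from 0 D to 15 D, and 2 of 4 were lower at 9 D than at 6 D, SAT at -1.57 ± 0.27 and 3AT2 at -0.96 ± 0.2, beside 0.357% of all loci. Of 3 tested proanthocyanidin genes, which serve the seed coat, 0 were called in pp7l at 6 D against 0 D by limma and 0 had an unadjusted p under 0.05, while BAN, anthocyanidin reductase, was listed at 0 in every pp7l library to 12 D and averaged 5.21 TPM in Col0 at 12 D. PAP1, a MYB activator, averaged 1.93, 19.1, 21.7, 26.5 and 29 TPM in pp7l and 4.13, 8.06, 31.4, 12.1 and 0.657 TPM in Col0 from 0 D to 15 D, and its change from 6 D to 9 D in pp7l was 0.14 ± 0.31 (limma adjusted p = 0.976). PAP2 reached 7.78 TPM in pp7l and 52.3 TPM in Col0 at 12 D. Of 12 activators listed, 5 were tested. In pp7l 3 were higher than at 0 D and 1 lower at 9 D, beside 27.7% and 5.06% of all loci. At 12 D in pp7l these counts were 3 and 1, beside 37.8% and 6.31%. In Col0 4 were higher and 0 lower at 9 D, beside 64.8% and 2.88%. At 15 D in Col0 1 was higher and 3 lower, beside 16.7% and 34.7%. Of 6 repressors, LBD38 and LBD39 fell in pp7l by 6 D (-1.62 ± 0.18 and -1.46 ± 0.18), where 3.9% of all loci were called lower. LBD37, LBD38 and LBD39 fell in Col0 by 12 D (-4.12 ± 0.34, -2.54 ± 0.18 and -1.61 ± 0.18), where 11.9% of loci were lower. In Col0 at 9 D, 2 of the 6 repressors were higher than at 0 D and 3 lower, beside 64.8% and 2.88% of loci. At 15 D all 6 were lower in Col0 than at 0 D, beside 34.7% of loci.

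Over the 10 group means the members resembled each other, with Pearson correlations of log2 levels between pairs of 0.826 (UGT75C1 and F3H) to 0.986. Among 7530 other loci with at least 10 TPM in some group, the 10 most like the members' mean course were AT1G03940 (3AT1, r = 0.979), GBSS1 (0.972), NUDX15 (0.965), AT4G09760 (0.963), MLP328 (0.96), GLX2-1 (0.957), APS4 (0.956), PPa2 (0.956), AT1G10150 (0.956) and AT1G18470 (0.954). 3AT1 is an anthocyanin coumaroyltransferase and GBSS1 a starch synthase, and the points are 10 means that share their libraries.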

How the data were processed

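RNA was sequenced from 29 libraries of whole plants in 10 groups of genotype and day. The deposited values are TPM per locus, made by the authors with Trimmomatic, FastQC and Salmon on TAIR10, per the submitters' processing notes, which give no versions. The file holds 33681 loci and no counts, so the depth of each library is unknown. TPM were tested as log2(TPM + 1) with limma 3.58.1 (trend, R 4.3.3) in a single fit over all libraries with 19 residual degrees of freedom. Loci with at least 1 TPM in at least 3 libraries were kept, 18757 in all. Tests are two-sided, with Benjamini-Hochberg adjustment within each of 24 comparisons and a threshold of 0.05. The fit was also run on simulated data, with independent normal values and the same spread in all groups of a gene. Those data hold no outlying library and no shift in the total, so the run cannot show how the fit handles these. Promoters were read from the RefSeq genome TAIR10.1, in which 32954 of the loci were found. Genes of other lists are named as up to 3 with the largest change among those called in a comparison, and FLS1, SAT, PAP1 and BAN are followed over further days. Alternatives were other pseudocounts, no filter, median-of-ratios scaling, nuclear loci without ribosomal RNA, array weights, a replicate block, fits of the compared groups and each library left out. The members and lists were chosen with earlier results of these data known. Figures were drawn with Python 3.11.15, pandas 2.3.3 and matplotlib 3.10.9.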

Additional observations from a re-analysis of the deposited data

Results flagged for a closer look

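The change from 0 D differed between pp7l and Col0, by the limma test of the difference itself, for 27 of the values of the 9 members, each tested to 6, 9, 12 and 15 D. These are log2 differences, the change of pp7l minus that of Col0. To 6 D they were 1.95 for F3H, 2.23 for TT7, 4.25 for DFR, 3.33 for LDOX, 2.13 for UF3GT, 3.27 for UGT75C1 and 3.82 for TT19. To 9 D they were -2.32 for TT4, -1.37 for TT5, -2.43 for F3H, -2.65 for TT7, -2.08 for DFR, -2.02 for LDOX, -2.39 for UF3GT and -1.63 for UGT75C1. To 12 D they were -1.66 for F3H, 1.29 for LDOX and 1.38 for UGT75C1. To 15 D they were 2.86 for TT4, 1.9 for TT5, 1.17 for F3H, 2 for TT7, 3.27 for DFR, 4.01 for LDOX, 3.5 for UF3GT, 4.58 for UGT75C1 and 3.7 for TT19. Of all loci 1.92% were called higher and 1.7% lower to 6 D, and 0.512% and 15% to 9 D. To 12 D these shares were 9.02% and 32.6%, and to 15 D 51% and 3.39%. The median locus stood at 0.15, -0.51, -0.52 and 0.88 from 6 D to 15 D. The value of F3H to 15 D turns to -0.42 after median-of-ratios scaling. Col0 15 D, against which the last set is taken, holds the libraries with 27.5% and 61.2% of TPM in ribosomal RNA loci, and the part of this in the differences was not tested.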

How the results depend on the processing

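The counts of members higher at 6, 12 and 15 D in pp7l, at 9 and 12 D in Col0, and lower at 15 D than at 12 D in Col0 were 9 under every alternative run. Of the 216 member values 213 kept their call with the replicate block. The other 3, all of F3H, missed the threshold with limma adjusted p of 0.0535 (pp7l 9 D against 6 D), 0.0508 and 0.0546 (difference in change to 6 D and 15 D). Replicate numbers did not pair the samples, since in 1 of 20 comparisons (pp7l against Col0 at 15 D) every pair correlated above 0.1 and the correlations ran from -0.14 to 0.26. With a pseudocount of 0.1, 1 member was lower in pp7l at 9 D than at 6 D, 1 was higher in pp7l than Col0 at 12 D, 5 changed less in pp7l to 9 D, and 2 were lower in pp7l 15 D than Col0 9 D. Of all loci 14, 2697, 1995 and 1057 were called so, in the same order. With a pseudocount of 5, 1 member was higher in Col0 at 6 D and 0 lower at 15 D than at 0 D, 6 were lower in pp7l at 9 D than at 6 D, 2 lower in pp7l at 15 D than at 12 D, and 1 higher in Col0 at 12 D than at 9 D. Of all loci 2383, 5523, 136, 78 and 5468 were called so, in the same order. After median-of-ratios scaling, for which shares of all loci stand with each comparison above, 6 members were higher in Col0 at 6 D than at 0 D. In Col0 at 15 D against 0 D, 6 were then higher and 1 lower, and in pp7l 8 were lower at 9 D than at 6 D and 3 lower at 15 D than at 12 D. Between genotypes 3 were then lower in pp7l at 0 D and 1 at 15 D, F3H at -0.6, 5 changed more in pp7l to 12 D, and 8 were lower in pp7l 15 D than Col0 9 D. F3H also turned to -0.42 in the difference in change to 15 D, and the cause was not tested. On nuclear loci without ribosomal RNA 7 members were higher in Col0 at 6 D than at 0 D, and 5 lower in pp7l at 9 D than at 6 D. Of 21461 loci tested there, 8053 and 155 were called so, in the same order. With array weights, which gave Col0 15 D replicate 2 almost no weight, 0 members were higher in Col0 at 6 D than at 0 D, 0 at 9 D than at 6 D, 6 at 15 D than at 0 D and 1 at 12 D than at 9 D. Of all loci 0, 0, 6486 and 6944 were called so, in the same order. In pp7l 9 members were lower with these weights at 9 D than at 6 D and 3 lower at 15 D than at 12 D, 1 was lower than in Col0 at 0 D, 0 were higher at 6 D, 0 changed more to 6 D, and 9 were lower in pp7l 15 D than Col0 9 D. Of all loci 1639, 731, 1042, 0, 0 and 4411 were called so, in the same order. The 1639 loci compare with 67 in the main fit. In fits of only the groups compared, with fewer samples, 0 were higher in Col0 at 6 D than at 0 D, 0 at 9 D than at 6 D and 1 at 12 D than at 9 D, and 1 was higher and 1 lower at 15 D than at 0 D. There 9 were lower in pp7l at 9 D than at 6 D, 2 were lower in pp7l than Col0 at 0 D, 0 higher at 6 D, 4 changed more in pp7l to 12 D, and 8 were lower in pp7l 15 D than Col0 9 D. Calls over all loci, higher and lower together, shifted in such fits too. They were 0 in Col0 at 6 D against 0 D. In pp7l at 6 D against 0 D they were 9655, where the main fit called 4010. Between genotypes at 0 D they were 7634, where the main fit called 3794. Without the libraries rich in ribosomal RNA, an alternative chosen after seeing the data, 0 were lower in Col0 at 15 D than at 0 D. Where 1 library of a group remained, at 6 D or 15 D in Col0, it was assumed to vary like the other groups. Leaving out 1 library at a time gave 0 to 7 higher and 0 to 2 lower in Col0 at 6 D than at 0 D, and 1 to 5 higher and 1 to 3 lower at 15 D than at 0 D. It gave 5 to 8 that changed less in pp7l to 9 D, 2 to 4 lower in pp7l 15 D than Col0 9 D, and 1 to 3 higher in pp7l than Col0 at 12 D. Counts over all loci are not set beside each of these here, and their ranges over all the alternatives follow. Counts over all loci moved too. In pp7l against 0 D they were 4010 at 6 D (2205 to 11512 over the alternatives), 6139 at 9 D (3982 to 12549), 8277 at 12 D (6054 to 13662) and 10325 at 15 D (8363 to 14460). Between days in pp7l they were 114 at 9 D against 6 D (36 to 4780), 302 at 12 D against 9 D (180 to 3755) and 240 at 15 D against 12 D (21 to 3504). In Col0 they were 4754 at 6 D against 0 D (0 to 10143), 11670 at 9 D against 6 D (0 to 14794), and 15475 at 15 D against 12 D (7273 to 17004). Between genotypes they were 3794 at 0 D (1369 to 7634), 5407 at 6 D (0 to 13033), 2746 at 9 D (1769 to 9739) and 7979 at 12 D (6206 to 12225). For the difference in change they were 679 to 6 D (0 to 8401), 2917 to 9 D (1460 to 9035) and 7808 to 12 D (6461 to 11658). For pp7l 15 D against Col0 9 D they were 3170 (1896 to 8716).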
